A study of Mus musculus with 4 samples.

Results

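Cytoplasmic ribosomal proteins are the roughly equimolar protein parts of the large (Rpl) and small (Rps) subunits of the ribosome outside mitochondria. They were taken as every non-control probe whose gene name begins with Rpl or Rps and a digit, or is Rplp0, Rplp1, Rplp2 or Rpsa, leaving out the S6 kinases (Rps6k) and pseudogenes. This gave 142 probes of 85 gene names, of 41174 non-control probes on the array: 83 probes of 51 large-subunit names and 59 probes of 34 small-subunit names. The names also take in paralogous forms such as Rpl3l and Rpl22l1, and Rps19bp1, which carries the name of a partner protein without being part of the ribosome.

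The series compared follistatin-treated with untreated C2C12 cells, mouse myoblasts of an established line, which form myotubes on serum withdrawal. Follistatin 288 (recombinant, human protein) was given at 200 ng/ml every 24 h through 6 days of differentiation, and the untreated cultures differentiated for as long without it. Both came from myoblasts grown to 80% confluence and moved to horse serum, which the labels give as 2% in one place and 10% in another. Each of the 4 biological replicates was 1 hybridisation to a two-colour Agilent array of mouse genes. The labels call every array a dye swap, and they give Cy3 to the follistatin RNA and Cy5 to the untreated RNA each time, from which the direction of every ratio here is taken. With no array of the opposite orientation among these 4, a dye effect and the treatment cannot be told apart. Whether the replicates came from separate cultures is not said beyond the word biological. The p-values measure the spread between these arrays. The main test takes the 4 arrays as independent, although replicates 2 and 3 correlated at r = 0.82 over all tested probes.

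Follistatin binds activins and myostatin, ligands of the transforming growth factor beta family that restrain muscle growth, and keeps them from their receptors. In muscle, growth through the mTORC1 kinase raises ribosome production and the translation of ribosomal protein messenger RNAs. These messages begin with a 5′ terminal oligopyrimidine (TOP) tract, a run of C and T bases at the start of transcription that couples their translation to mTORC1 through Larp1. An array of total RNA measures their abundance and not their translation, and fewer cells of a type and less RNA per cell cannot be told apart in such bulk samples.

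The start windows below show, for 4 members described later, a run of C and T that spans the annotated start. They are the 15 bases before and the 15 bases from the annotated start, 5′ to 3′, from the RefSeq promoter table of GRCm38.p6, with the longest run of C and T in capitals.
Rps6 (chr4:86857353-86857382, minus strand): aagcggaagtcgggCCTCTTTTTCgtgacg
Rps9 (chr7:3704026-3704055, plus strand): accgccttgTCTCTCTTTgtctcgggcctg
Rps18 (chr17:33955651-33955680, minus strand): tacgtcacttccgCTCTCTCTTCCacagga
Rplp2 (chr7:141447636-141447665, plus strand): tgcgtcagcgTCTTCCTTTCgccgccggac

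The table held 64 of the 85 member symbols, with 76 promoter entries. A run of at least 8 bases that are all C or T, anywhere in the 30-base window on the transcribed strand, was found in 28 of the 76 entries (36.8%), against 12% of all 32851 promoter entries. Where the longest run had to include the first transcribed base, these were 16 (21.1%), against 3.74% of all entries. The same run on the other strand (all A or G as read here) was found in 3 of the 76 (3.95%), against 13.2% of all entries. The 40 tested probes of genes with a C and T run anywhere in the window had a median mean log2 ratio of 0.089, and the 63 tested probes of genes with an entry but no run had a median of 0.032. A window without such a run says only that these letters are not in this window.

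Of the 142 probes, 138 were tested (81 large, 57 small, 84 gene names). A probe entered the test if one channel, the same each time, was well above background on 3 or more of the 4 arrays. Both Rpl39l probes, 1 of 3 Rps2 probes and 1 of 2 Rps6 probes did not pass. On every array 135 member probes were well above background in follistatin and untreated RNA alike. Across the whole array 27029 probes were tested, between 61.1% and 65.2% of spots were above background in the follistatin channel and between 61.4% and 69.4% in the untreated channel, and no spot was saturated. The number of arrays limits the precision. All 8 myotube markers (Myog, Myod1, Myh3, Acta1, Ckm, Des, Tnnt3, Ttn) met the same condition, as did the myoblast markers Pax7 and Myf5. Ptprc (blood), Epcam (epithelium), Cdh5 (endothelium) and Adipoq (fat) were never well above background in any channel. Cd68 (blood), Cdh1 (epithelium) and Tubb3 (neurons) met the condition throughout. Krt18 (epithelium) was well above background on 4 arrays in untreated RNA and on 1 in follistatin RNA. A Gfap (neural) probe was so on 4 and 2 arrays. Pecam1 (endothelium) and Fabp4 (fat) probes were so on at most 1 array in a channel. The part of these other cell types in the results was not tested.

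The arrays were not equally alike, for the ribosomal proteins and for all tested probes. Over the 138 member probes, the log2 ratios (follistatin over untreated) of replicates 2 and 3 correlated at r = 0.91, and the sign was the same on both arrays for 119 probes. Replicates 2 and 4 correlated at r = -0.29 and replicates 3 and 4 at r = -0.18. Replicate 1 correlated with replicates 2, 3 and 4 at r = 0.09, 0.064 and 0.15. By rank (Spearman), replicate 1 correlated with them at 0.345, 0.297 and 0.125, and replicates 2 and 3 at 0.90. An Rps4x probe lay far from the rest, at 3.34, -3.78 and -3.14 on replicates 1 to 3, which affects r more than rank. Points of one array share its labelling and base composition: with the GC content of the probe, which ran from 30% to 75%, the ratios correlated at r = 0.30 on replicate 1 and at -0.20, -0.175 and -0.060 on replicates 2 to 4. The outlying Rps4x probe has 61.7% GC, and these r were not taken again without it. With the mean log2 signal of the probe, the ratios correlated at r = -0.092, -0.14, -0.225 and -0.054 on replicates 1 to 4. For the mean ratio over arrays that r was -0.217. Of the 138 probes, 67 had one sign on both replicates 2 and 3 and the opposite sign on replicate 4. Of these, 50 were lower on replicates 2 and 3 and higher on replicate 4. These sign counts were not made over all probes. Over all 27029 tested probes, replicates 2 and 3 correlated at r = 0.82, and replicate 4 with replicates 2 and 3 at 0.038 and 0.19. Replicate 1 correlated there with replicates 2, 3 and 4 at r = 0.23, 0.32 and 0.062. Replicates 1 to 3 share a slide and replicate 4 is alone on the other, so its slide, its scanner software version and the replicate itself cannot be told apart.

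**Figure D1:**
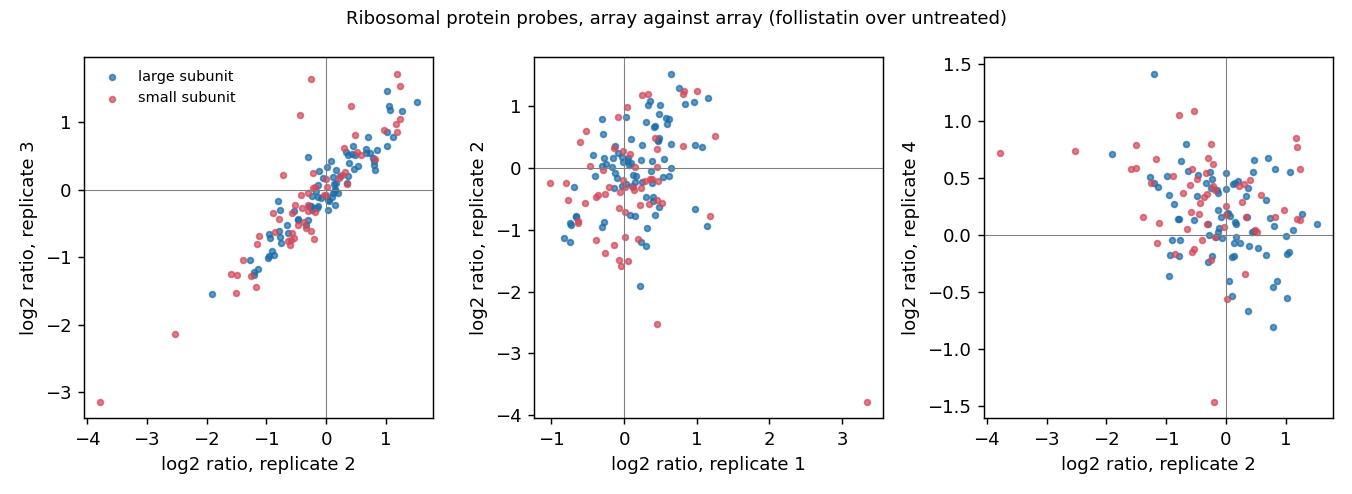
Log2 ratios (follistatin over untreated) of the 138 tested ribosomal protein probes on pairs of arrays, 1 point per probe, large subunit in blue and small subunit in red; the axes differ between panels. Replicates 2 and 3 lie along a line (r = 0.91) and replicates 2 and 4 slope the other way (r = -0.29). Replicates 1 and 2 scatter (r = 0.09, Spearman 0.345), with an Rps4x probe far from the rest.

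Averaged over arrays, the ribosomal proteins as a group lay near the middle of the array, while on single arrays they stood above or below it. Their median log2 ratio was 0.14, -0.14, -0.073 and 0.18 on replicates 1 to 4, a mean of 0.029 ± 0.16 (SD, n = 4), against a mean of 0.0058 ± 0.022 for the median of all tested probes. More probes were higher than lower in follistatin cells on replicates 1 (87 higher, 51 lower) and 4 (100 and 38), and more were lower on replicates 2 (62 higher, 76 lower) and 3 (63 and 75). Over all tested probes, 13171 were higher and 13854 lower on replicate 1, and 13321 and 13707 on replicate 4. On replicate 2 they were 13830 and 13192, and on replicate 3 they were 13951 and 13058. The member median minus that of all tested probes was 0.16, -0.16, -0.10 and 0.19 on replicates 1 to 4. The group median had both signs and its spread over arrays exceeded its mean. It was 0.16 without replicates 2 and 3 and -0.023 without replicate 4.

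No ribosomal protein probe passed the threshold in limma (Benjamini-Hochberg adjusted p under 0.05 over all tested probes). Among the 138 members 0 were called higher and 0 lower, where over all 27029 probes 0 (0%) were called higher and 2 (0.0074%) lower. The smallest adjusted p of a member was 0.107. At an unadjusted p under 0.05, 20 member probes (14.5%) were higher, against 9.93% of all probes, and 6 (4.35%) were lower, against 10.8% of all probes. The methods' t-test, run on the same channels and adjusted, also called 0 members in each direction. By sign alone, 29 member probes (21%) were higher on all 4 arrays, against 13.7% of all probes, and 10 (7.25%) were lower on all 4, against 14.5%. A mean over 1.6-fold, the size the series' design text asks for, was reached by 12 members upward (8.7%, against 6.48% of all probes) and 3 downward (2.17%, against 9.33%).

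These splits depend on how the signals were corrected and scaled, and on how many probes of a gene were counted. With normexp background correction and loess, 23 members (16.7%) were higher at unadjusted p under 0.05, against 8.57% of all probes, and 12 (8.7%) were lower, against 10.5%. With normexp and median centring, 20 (14.5%) were higher, against 6.33% of all probes, and 22 (15.9%) were lower, against 9.57%. With array weights, 33 members (23.9%) were higher and 33 lower, against 22.1% and 21% of all probes. On all 4 arrays, 28 members were higher and 15 lower with loess, against 12.8% and 14.5% of all probes, and 17 higher and 25 lower with median centring, against 10.1% and 14.1%. Past 1.6-fold, 7 members were higher and 7 lower with loess, against 1.3% and 4.01% of all probes, and 4 higher and 18 lower with median centring, against 1.67% and 3.84%. With 1 probe per gene on processed signals, 9 of 84 members were higher at unadjusted p under 0.05 and 6 were lower. Of all 17871 probes tested in that setting, 3682 passed in either direction. With every probe, the member counts were 20 and 6 of 138. The surplus of higher over lower members was thus seen with processed signals, but was smaller at unadjusted p with 1 probe per gene. With loess the surplus was seen at unadjusted p and by sign. It was not seen with median centring or, at unadjusted p, with array weights.

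The counts at unadjusted p in limma depend also on which arrays enter, for members and for the whole array. Without replicate 4, 29 members (21%) were higher, against 14.2% of all probes, and 21 (15.2%) were lower, against 14.1%. With replicates 2 and 3 averaged into 1 array, 11 members (7.97%) were higher and 0 lower, against 4.68% and 6.69% of all probes. Without both of those replicates, 3 members (2.17%) were higher and 0 lower, against 2.84% and 3.86%. Without replicate 2, 9 members (6.52%) were higher and 0 lower, against 4.82% and 6.91% of all probes, and without replicate 3 the member counts were also 9 and 0, against 3.88% and 5.64%.

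The large subunit stood above the small subunit on 3 of 4 arrays. Large-subunit medians were 0.23, 0.036, -0.024 and 0.14 on replicates 1 to 4, and small-subunit medians were 0.040, -0.31, -0.22 and 0.33. The difference, large minus small, was 0.19, 0.35, 0.20 and -0.19, a mean of 0.14 ± 0.23 (SD, n = 4), which is less than its spread over arrays. The large minus small subunit difference was 0.24 without replicate 4 and -0.00047 without replicates 2 and 3. The array where the order turned was replicate 4, on which 47 small-subunit probes were higher and 10 lower. Replicate 2 had 19 higher and 38 lower. Over all tested probes, 13321 were higher and 13707 lower on replicate 4, and 13830 higher and 13192 lower on replicate 2. By mean ratio 49 large-subunit probes (60.5%) were higher and 32 lower, and 28 small-subunit probes (49.1%) were higher and 29 lower. Of all tested probes, 51.3% were higher by mean ratio. The unadjusted p in limma passed upward for 13 of 81 large and 7 of 57 small probes, against 9.93% of all probes. Downward it passed for 3 of each subunit, against 10.8% of all probes.

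**Figure D2:**
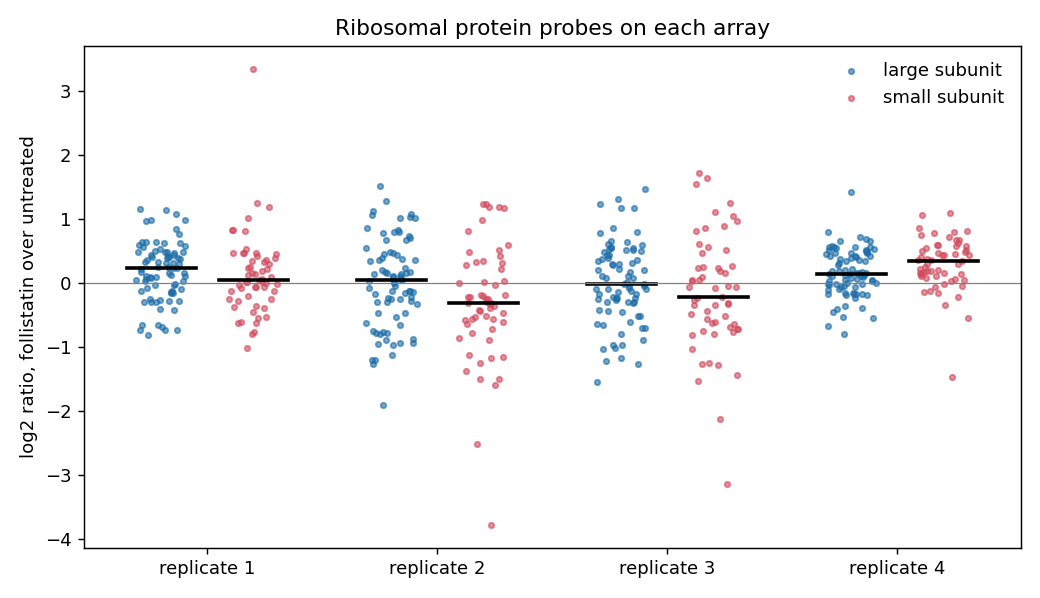
Log2 ratio (follistatin over untreated) of each tested ribosomal protein probe on each array, large subunit (81 probes, blue) left of small subunit (57 probes, red); black bars are medians. The small-subunit median lies below 0 for replicates 2 and 3 but reaches 0.33 for replicate 4, and the lowest and highest points on replicates 2 and 1 are 1 Rps4x probe.

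The member with the closest agreement between arrays among those of smallest p was Rpl9, a large-subunit protein. Its probe lies in mm9 at chr5:65779884-65780334 on the minus strand, spanning 451 bases of genome for 60 bases of probe, and so crosses an intron of the gene. It is shown because it is the least variable of these probes.
Rpl9 probe: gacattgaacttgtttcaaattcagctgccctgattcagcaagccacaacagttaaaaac

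The processed signal of Rpl9 was 140559, 162986, 162334 and 132902 in follistatin cells on replicates 1 to 4, against 93156, 100679, 94116 and 83148 in untreated cells. Every follistatin value lay above every untreated value. How many of all tested probes have no overlap was not counted, for this probe or for those below. Such overlap sets signals of different arrays side by side and leaves out their pairing. The log2 ratios were 0.59, 0.69, 0.79 and 0.68, a mean of 0.69 ± 0.079 (SD, n = 4; adjusted p = 0.117 in limma, whose error for a probe also draws on the variance of all probes).

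Rpl10, which joins the large subunit late in its assembly, was higher on all 4 arrays with both of its probes, at means of 0.57 ± 0.28 and 0.58 ± 0.34. Rpl23 had one probe at 0.47, 0.45, 0.64 and 0.56 (mean 0.53 ± 0.088) and another at -0.099, -0.17, -0.024 and -0.022 (mean -0.080 ± 0.072). Each Rpl23 probe thus varied little over arrays, while the probes of the gene had opposite signs on every array.

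The highest large-subunit means belonged to Rpl17, Rpl21, Rpl4 and Rpl7. Rpl17, which lies at the rim of the exit tunnel for new peptides, had probes at 0.64, 1.52, 1.30 and 0.095 (mean 0.89 ± 0.65) and at 0.76, 1.28, 1.17 and 0.18 (mean 0.85 ± 0.50). Rpl4, whose extension lines that tunnel, was at 0.96, 1.06, 1.23 and -0.15 (mean 0.77 ± 0.63). Both genes were far higher on replicates 1 to 3 than on replicate 4. Rpl7 had 3 probes, at means of 0.77 ± 0.52, 0.64 ± 0.54 and 0.36 ± 0.22, all near 0 or below on replicate 4 (0.042, -0.16 and 0.028). Rpl21 was at 0.35, 1.07, 1.17 and 0.55 with one probe (mean 0.79 ± 0.40, adjusted p = 0.133 in limma) and at 1.14, -0.95, -0.98 and -0.36 with the other (mean -0.29 ± 0.99).

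The acidic proteins of the stalk, the flexible arm of the large subunit that recruits translation factors, were, together with Rpl27, the lowest large-subunit genes with the same sign on all 4 arrays. The stalk is built of Rplp1 and Rplp2 dimers on the base protein Rplp0. The probes of Rplp1 (mm9 chr9:61761101-61761160, minus strand) and Rplp2 (mm9 chr7:148637180-148637239, plus strand) both cover the end of the reading frame, and 22 of the last 28 coding bases are the same, in capitals here. They are printed up to the stop codon, which shows how far the pair of probes read like sequence.
Rplp1 probe: gatGACATGGGcTTTGGtcTtTTTGAcTAA
Rplp2 probe: cGACATGGGgTTTGGctTgTTTGAtTAA

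For Rplp1 the signal was 401533, 357379, 326716 and 351924 in follistatin cells on replicates 1 to 4, against 634901, 613746, 499367 and 400131 in untreated cells. The groups overlapped only in that the untreated value of replicate 4 lay just under the highest follistatin value. The log2 ratios of -0.66, -0.78, -0.61 and -0.19 averaged -0.56 ± 0.26 (SD, n = 4; adjusted p = 0.171 in limma). The probe shown of Rplp2 gave 275687, 194266, 189561 and 249966 in follistatin cells, against 457563, 371221, 310150 and 282020 in untreated cells, and no value overlapped.

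The Rplp2 ratios of -0.73, -0.93, -0.71 and -0.17 averaged -0.64 ± 0.32 (adjusted p = 0.157 in limma). Both stalk proteins were lower on each array and least so on replicate 4. A second Rplp2 probe was at -0.66, -0.80, -0.17 and 0.14 (mean -0.37 ± 0.44), and its mean was -0.016 with loess and -0.041 with median centring. The means of Rplp0 had both signs: its 3 probes averaged 0.36 ± 0.67, 0.035 ± 0.47 and -0.043 ± 0.13. With normexp and loess they were at 0.32, -0.011 and -0.25, and with normexp and median centring at 0.26, -0.20 and -0.52. The first of these probes is spotted 10 times on the array, and the SD over its spots was 0.021 to 0.027 on an array, while the array means were 0.32, 1.02, 0.65 and -0.55. The measured spot error was thus far smaller than the spread between arrays.

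Rpl27 was at -0.74, -0.90, -0.90 and -0.046 (mean -0.65 ± 0.41, adjusted p = 0.171 in limma). Rpl36a had the lowest large-subunit means, -0.68 ± 0.79 and -0.68 ± 0.75, with probes that start at bases 401 and 421 of one transcript and share 40 bases. Their values were -0.75, -1.21, -1.22 and 0.46 for the first and -0.82, -1.13, -1.18 and 0.42 for the second, close to each other on every array. The third Rpl36a probe, which starts at base 296, was at 0.069, 0.036, -0.15 and 0.20 (mean 0.038 ± 0.14). An Rpl34 probe was at 0.21, -1.90, -1.55 and 0.71 (mean -0.63 ± 1.29), lower on the pair of arrays that resemble each other and higher on the others. The other Rpl34 probe was at 0.15, -0.78, -0.31 and 0.14 (mean -0.20 ± 0.44).

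In the small subunit the highest mean in processed signals was that of an Rps13 probe. Rps13 sits on the body of the small subunit, and its probes gave the widest range within a member gene. Both lie on the minus strand of chromosome 7 in mm9, 16 bases apart. The first, at chr7:123475037-123475096, was designed on the RefSeq transcript and is printed up to its stop codon. The second, at chr7:123475113-123475172, was designed on a complementary DNA clone. No exon annotation of mm9 was used here to place it. They are printed because sequences that are neighbours on the genome gave opposite means. Whether both lie in the same mature message was not tested.
Rps13 transcript probe: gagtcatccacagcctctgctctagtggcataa
Rps13 clone probe: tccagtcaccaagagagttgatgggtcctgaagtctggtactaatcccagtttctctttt

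The Rps13 clone probe had signals of 414, 688, 892 and 413 in follistatin cells, against 235, 293, 307 and 277 in untreated cells, and no value overlapped between the groups. Its log2 ratios were 0.82, 1.23, 1.54 and 0.58, a mean of 1.04 ± 0.43 (SD, n = 4; adjusted p = 0.107 in limma). With normexp and loess the mean of this probe was 0.61, below both Rps3a probes (0.77 and 0.74) and an Rps9 probe (0.69). The Rps13 transcript probe had 160241, 125433, 115136 and 161715 in follistatin cells, against 209124, 174749, 165473 and 115172 in untreated cells. Its ratios of -0.38, -0.48, -0.52 and 0.49 averaged -0.22 ± 0.48, with the groups overlapping.

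Rps9, which binds ribosomal RNA early in small-subunit assembly, showed a like contrast in size: a probe designed on an Ensembl transcript was at 0.33, 1.19, 1.72 and 0.77 (mean 1.00 ± 0.59, adjusted p = 0.127 in limma), and the RefSeq transcript probe at 0.083, 0.21, 0.18 and 0.43 (mean 0.22 ± 0.15). Both Rps9 probes were higher on all 4 arrays. Rps25, which is used by some viral internal ribosome entry sites, was at 0.25, 1.16, 0.97 and 0.85 (mean 0.81 ± 0.39, adjusted p = 0.127 in limma; 0.39 with loess and 0.38 with median centring) and at 0.040, 0.98, 0.89 and 0.22 with its other probe (mean 0.53 ± 0.47). Rps3a had probes at means of 0.86 ± 0.49 and 0.75 ± 0.44, each higher on all 4 arrays and lowest on replicate 4 (0.13 and 0.14).

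Of the 44 genes with several tested probes, 6 had every probe higher on all 4 arrays: Rpl10, Rpl17, Rps2, Rps3a, Rps9 and Rps25. They were picked after their values were seen, by that pattern alone. Of all tested probes, taken singly, 13.7% were higher and 14.5% lower on all 4 arrays. How many of all genes with several probes had every probe so was not counted. Rps18 had every probe lower on all 4 arrays, at -0.63, -0.86, -0.63 and -0.17 with one probe (mean -0.57 ± 0.29, adjusted p = 0.172 in limma) and at -0.77, -0.53, -0.23 and -0.12 with the other (mean -0.41 ± 0.29). Rps18 lies in the head of the small subunit.

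**Figure D3:**
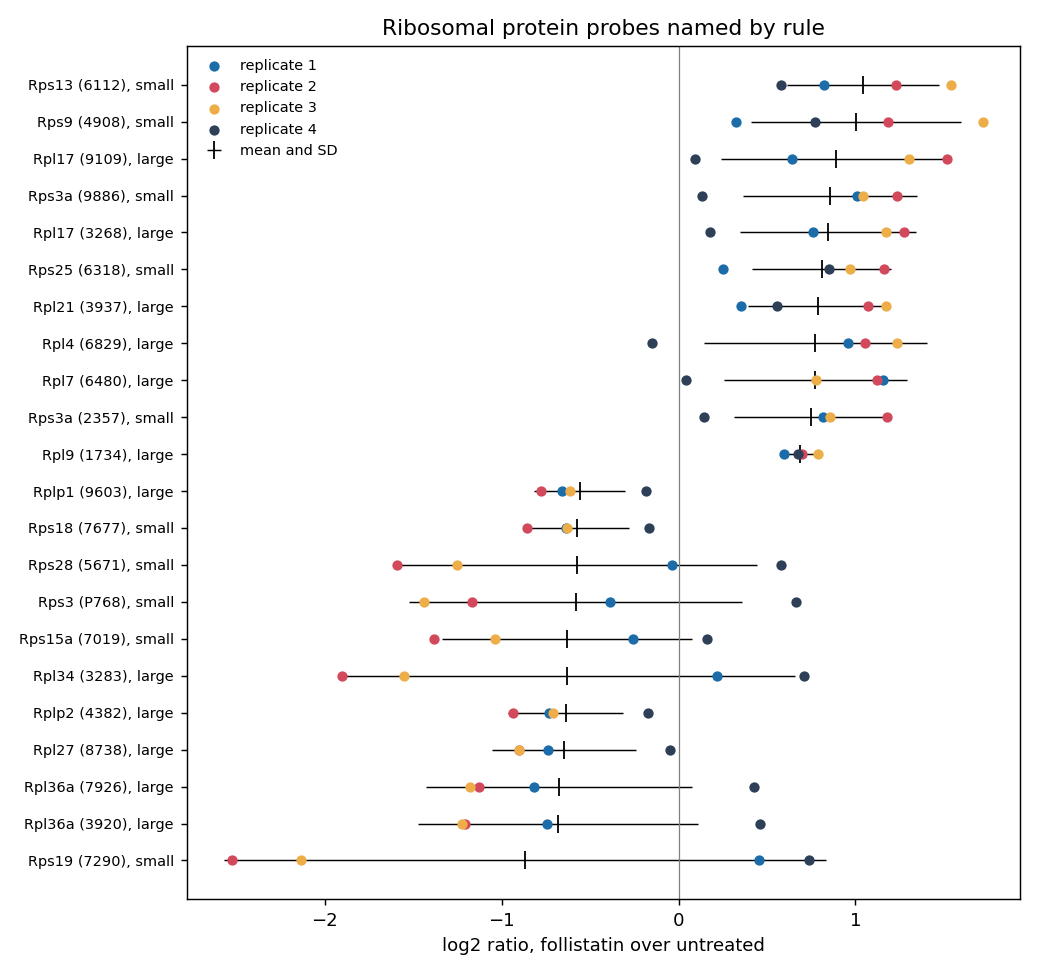
Log2 ratios (follistatin over untreated) of the member probes with the highest and lowest means in each subunit and of those with the smallest p in each direction, coloured by replicate, with the mean and SD over 4 arrays in black; the last 4 characters of the probe name are in brackets. The Rps4x clone probe, which runs from -3.78 to 3.34, is left out to keep the scale; Rpl9 has the tightest values, and replicate 4 (dark) lies nearest 0 or across it in most probes.

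Some of these means moved by over 1.5 times with the scaling. Of the 138 member probes, 40 did so with normexp and loess while keeping their sign and 12 changed sign, and with normexp and median centring 64 moved that far and 28 changed sign. The high Rpl21 probe was at 0.45 with loess and 0.46 with median centring. Rpl9 was at 0.62 and 0.45 under the same settings. Several low probes were lower still with median centring, where Rplp1 was at -0.96, the Rplp2 probe shown at -0.96 and the lower Rps18 probe at -0.97.

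Rps6, the small-subunit protein that the S6 kinases phosphorylate downstream of mTORC1, had signals of 98266, 89951, 111701 and 75391 in follistatin cells, against 73384, 64575, 63944 and 73219 in untreated cells. The values of the groups did not overlap, with the lowest follistatin value just above the highest untreated one. Its ratios of 0.42, 0.48, 0.80 and 0.042 averaged 0.44 ± 0.31 (adjusted p = 0.256 in limma), and the mean was 0.27 with loess and 0.15 with median centring. Rps27a, made as a fusion with ubiquitin, was at -0.54, -0.57, -0.65 and -0.15 (mean -0.48 ± 0.22, adjusted p = 0.203 in limma), lower on all 4 arrays. Rpsa, also known as the laminin receptor precursor, had probes on both sides of 0, at -0.20 ± 0.55 and 0.34 ± 0.39.

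The widest swings between arrays were in the small subunit. An Rps4x probe designed on an expressed sequence tag, for which the file gives no genome position, had the largest SD of all members, and an Rps19 probe (mm9 chr7:25669869-25670194, plus strand) came next. Both are shown because a pair of arrays gave them a change of opposite direction to the others.
Rps4x tag probe: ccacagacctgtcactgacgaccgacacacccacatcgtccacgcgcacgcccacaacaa
Rps19 probe: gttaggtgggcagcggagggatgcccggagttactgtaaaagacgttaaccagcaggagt

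The Rps4x tag probe read 936, 48, 75 and 609 in follistatin cells on replicates 1 to 4, against 92, 662, 661 and 370 in untreated cells. Its log2 ratios were 3.34, -3.78, -3.14 and 0.72, a mean of -0.72 ± 3.36 (SD, n = 4), which was -0.28 with loess and -0.27 with median centring. High and low signal stood in opposite channels on replicate 1 and on replicates 2 and 3, and the Rps4x transcript probe stayed at -0.28, -0.034, -0.072 and 0.072 (mean -0.079 ± 0.15).

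Rps19, a small-subunit protein mutated in Diamond-Blackfan anaemia in humans, gave 6657, 1322, 1755 and 8017 in follistatin cells with that probe, against 4850, 7612, 7710 and 4810 in untreated cells. The ratios of 0.46, -2.53, -2.14 and 0.74 averaged -0.87 ± 1.70, the lowest mean of any member in processed signals and with loess. Its other probe was at 0.15, 0.0052, -0.075 and 0.18 (mean 0.063 ± 0.12), so the swing was seen with 1 of 2 probes. Rps15a, Rps3 and Rps28 followed among the low means of small-subunit probes well above background in both channels throughout, at -0.63 ± 0.71, -0.58 ± 0.94 and -0.58 ± 1.02. Each of these was higher on replicate 4 (0.16, 0.66 and 0.58) and lower on replicates 2 and 3. The other Rps15a probe, a faint one, was at 0.23 ± 0.52, and the other Rps3 probe was at -0.19 ± 0.17. Of the 4 Rps28 probes, 3 had means between -0.58 and -0.55, and the remaining one was at -0.028 ± 0.48.

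Probes of one gene often did not agree. Of the 44 genes with at least 2 tested probes, 18 had probe means of both signs, with a median range of 0.38 and a largest range of 1.27 (Rps13). The 7 pairs of probes that overlap on one target differed by a median of 0.063 and at most 0.15, while the 59 other pairs of a gene differed by a median of 0.305. Position along the transcript did not order them: in the 31 genes with several probes on 1 RefSeq target, the probe nearer the 3′ end was higher in 15 and lower in 16. The 18 tested probes designed on clones or Ensembl transcripts varied more over arrays, with a median SD over the 4 arrays of 0.55, against 0.37 for the 120 on RefSeq transcripts, and with medians of the mean ratio of 0.042 and 0.043.

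**Figure D4:**
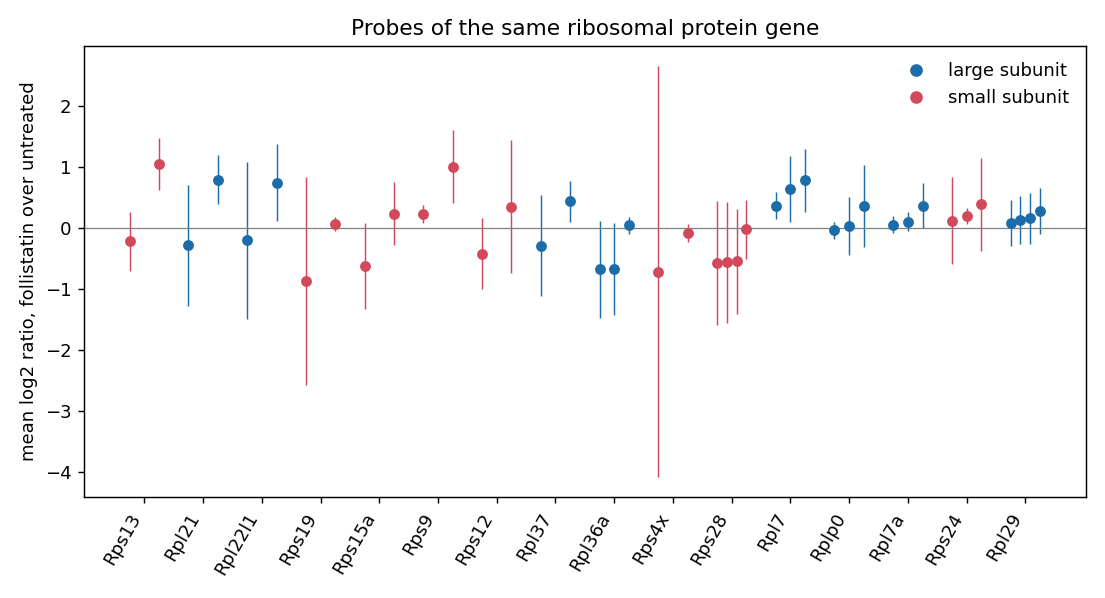
Mean log2 ratio (follistatin over untreated) with SD over 4 arrays for each tested probe of the 10 member genes with the widest range and of most other genes with at least 3 probes; large subunit in blue, small subunit in red. Probes of Rps13, Rpl21, Rpl22l1 and Rps19 have opposite signs, the 4 Rpl29 probes lie together between 0.076 and 0.27, and the bar of 1 Rps4x probe reaches far beyond the others.

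Paralogous forms are given here beside their partners. Rpl3l, a muscle-specific form of Rpl3, was measured with faint signals of 40.1, 39.3, 52.2 and 48.5 in follistatin cells, against 36.8, 42.8, 42.9 and 46.4 in untreated cells. Its ratio was 0.086 ± 0.17, and that of Rpl3, a core protein near the peptidyl transferase centre, was 0.26 ± 0.72 (0.62, 0.79, 0.42 and -0.81). Rpl22l1, a paralog of Rpl22, had probes at 0.23, -1.21, -1.27 and 1.42 (mean -0.21 ± 1.29) and at 0.49, 1.01, 1.46 and -0.0076 (mean 0.74 ± 0.64), which had opposite signs on 3 of 4 arrays. The second of these Rpl22l1 probes was faint, with signals of 29.8, 60.8, 99 and 37.8 in follistatin cells, against 21.2, 30.2, 35.9 and 38 in untreated cells. Its mean was 0.12 with normexp and loess and 0.091 with median centring.

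Rpl22 itself was at -0.13 ± 0.42 and 0.38 ± 0.23 with its probes. Rps27l was at 0.038 ± 0.44 and Rps27 at -0.12 ± 0.31, and Rpl36al was at -0.36 ± 0.44. The gene listed as Rps4y2, which RefSeq now calls Rps4l, was lower on all 4 arrays (-1.02, -0.25, -0.61 and -0.22; mean -0.53 ± 0.38, adjusted p = 0.217 in limma) at faint signals, and the SD over its repeated spots was 0.20 to 0.36 on an array. The Rps4y2 mean was -0.14 with loess and -0.17 with median centring. Rps19bp1 was higher on all 4 arrays with one probe (0.46 ± 0.13) and at 0.23 ± 0.35 with the other. Leaving out these forms and Rps19bp1 left a median of 0.030 over 128 probes.

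The other genes of ribosome production and its control gave no calls either. Other TOP messages, such as the elongation factors, had 23 of 37 probes higher (62.2%, against 51.3% of all tested probes) and 14 lower. The array medians of this list were 0.059, 0.39, 0.44 and -0.17. This list was highest on replicates 2 and 3, where the small-subunit probes were lowest. Within it Eef1b2, an exchange factor for elongation factor 1A, had 3 probes, all with means above 0 (0.21 to 1.15). Eef1g, of the same complex, was at 0.73 with one probe, higher on all 4 arrays, and at -0.032 with the other, and Eef1d, also of that complex, was at -0.37 and -0.19. Pabpc1, the poly(A)-binding protein, was at -0.71 with one probe, lower on all 4 arrays, and at 0.060 with the other.

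Ribosome assembly factors had 31 of 55 probes higher (56.4%, against 51.3% of all tested probes) and 24 lower, with array medians of 0.23, 0.26, 0.18 and -0.35. Dkc1, the pseudouridine synthase of the assembly pathway, was higher on all 4 arrays with 2 probes, at 1.08 and 0.74. Wdr12, needed for the large subunit, was at -0.60 with one probe, lower on all 4, and at -0.28 and -0.070 with its others. RNA polymerase I and its factors, which make ribosomal RNA, had 15 of 26 probes higher (57.7%) and 11 lower. Polr1a, its largest subunit, was at -0.70 with one probe and -0.093 with the other, and Rrn3, its initiation factor, at -0.78 and 0.22.

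Genes that control translation by growth signals had 30 of 50 probes higher (60%, against 51.3% of all tested probes) and 20 lower. Eif4ebp1, the mTORC1 substrate that holds back cap-dependent translation, ran from -1.24 to -0.64 over arrays with one probe (mean -0.95 ± 0.25, adjusted p = 0.103 in limma), lower on all 4, and its other probe was at 0.17, higher on 3 of 4. Tsc1, an inhibitor of mTORC1, was at -0.96 with the probe of smallest p, while its 3 other probes had means above 0, up to 0.70. Rictor, a subunit of mTORC2, was at -0.98 with the probe of smallest p, and of its 8 probes 6 had means below 0 and 2 above, from -1.29 to 0.40. Mitochondrial ribosomal proteins, coded by a separate set of nuclear genes, had 61 of 119 probes higher and 58 lower, with array medians of -0.0048, -0.13, -0.12 and 0.13. In each of these lists 0 probes passed the adjusted threshold in limma. At unadjusted p under 0.05 in limma, 9.93% of all probes were higher and 10.8% lower. By that measure 3 of 37 probes were higher and 1 lower among the TOP messages, and 4 and 3 of 55 among assembly factors. The counts were 3 and 4 of 26 for RNA polymerase I and 5 and 8 of 50 for growth control. For mitochondrial ribosomal proteins they were 10 and 11 of 119.

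**Figure D5:**
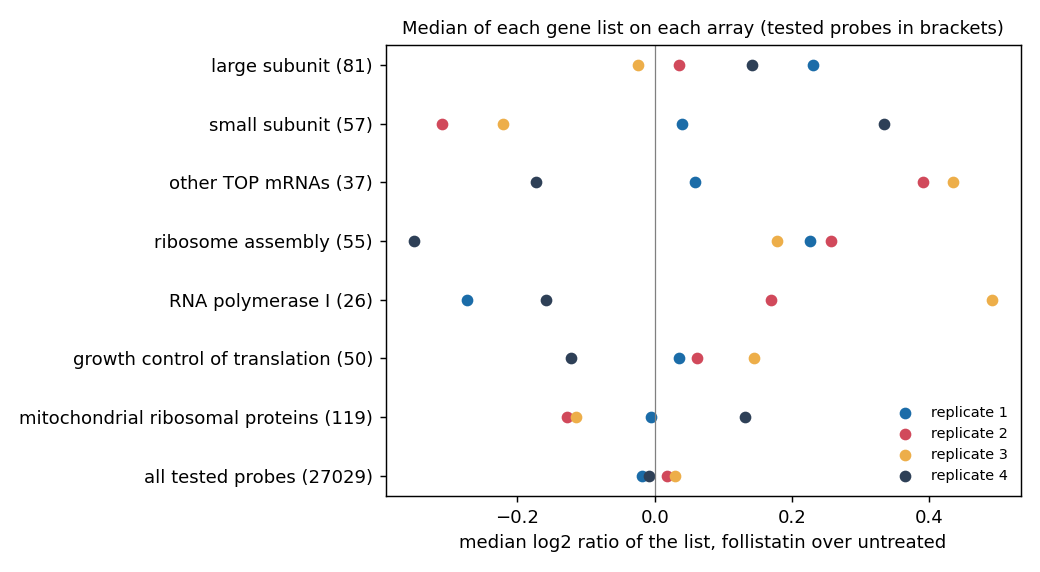
Median log2 ratio (follistatin over untreated) of each gene list on each array, with the number of tested probes in brackets. The small-subunit median runs from -0.31 to 0.33 over arrays, the assembly factors and other TOP messages are lowest on replicate 4, and the median of all tested probes runs only from -0.018 to 0.030.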

How the data were processed

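RNA of 4 biological replicates, follistatin beside untreated in each, was measured on 4 two-colour arrays. Per the file headers, the authors scanned the spots with Agilent Feature Extraction, version 10.7.3.1 for replicates 1 to 3 and 10.10.1.1 for replicate 4, and the deposited intensity values hold processed signals that this software had background-subtracted and dye-normalized. Each column of log2 values in the authors' deposited table equals the log2 of processed Cy3 over Cy5 signal (slope 1, r = 1 to 3 digits), with no further centring. Column medians were -0.16, 0.17, 0.13 and 0.11.

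The log2 ratio of processed signals, follistatin (Cy3) over untreated (Cy5), was computed for each probe. Control spots and spots with outlier flags were left out and repeated spots averaged. Tests covered probes with one channel, the same each time, well above background on 3 or more of the 4 arrays. The ratio was tested against 0 with lmFit and eBayes of limma 3.58.1 (statmod 1.5.0, data.table (version 1.17.8), R 4.3.3) and adjusted by Benjamini-Hochberg over 27029 probes, with a threshold of 0.05. The script was tested on simulated data. Lists were described by counts and medians, with no test. Members were named from the array annotation, and 122 probes were matched to RefSeq by accession and 20 by symbol or synonym. Probe positions are those of the files, in mm9.

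Named probes are the 5 highest and 5 lowest means per subunit, the 4 smallest p in each direction, paralogs and their partners, stalk proteins, Rpsa, Rps27a and Rps6, genes with at least 3 tested probes, the 5 largest SDs and the 3 smallest p of each related list. Other members were added after their values were seen, and some items named by the rule are not reported here. The members and lists were chosen with earlier results of these data known. Alternatives covered background correction, scaling, dim probes, probes per gene, single replicates, slide, array weights, the methods' t-test and the authors' table.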

Additional observations from a re-analysis of the deposited data

Results flagged for a closer look

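Among 68 sets of 4 arrays looked at (the named probes and the group medians), 4 had 1 array far from the other three by Dixon's ratio at the 95% level. Chance flags about 1 in 20 such groups, and replicate 4, the array on a slide of its own, was the distant one in each of the 4. For Rplp0 (probe A_51_P134602), replicate 4 had a log2 ratio of 0.16 and the others -0.12 to -0.081. A further Rplp0 probe (A_52_P586574) had -0.67 on replicate 4 and 0.21 to 0.36 on the others. Rpl7 (A_52_P346326) was at -0.16 on replicate 4 and at 0.84 to 1.02 elsewhere. Rpl22 (A_52_P391718) was at 0.037 on replicate 4 and at 0.47 to 0.51 elsewhere. The Rplp0 probes moved in opposite directions on replicate 4.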

How the results depend on the processing

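In all settings tried, the median log2 ratio of member probes and the large minus small subunit difference moved by less than their SD over arrays, but the median was -0.0089 with loess and -0.13 with median centring, and the difference was -0.00047 without replicates 2 and 3. Without variant forms they were 0.030 and 0.16. Member probes called higher and member probes called lower stayed at 0 in every setting but array weights, which called 19 and 18. Of all probes, probes called higher were then 3196 and probes called lower 3341. Those weights were 0.52, 2.32, 1.78 and 0.467 for replicates 1 to 4. Like the main limma fit, they take replicates 2 and 3, which resemble each other, as independent. The 2 probes called lower over the whole array (Olfr1299 and Ces3b, chosen after their values were seen) were not well above background in the follistatin channel on any array. That count was 0 with normexp in both forms, with the both-channel filter, with replicates 2 and 3 averaged or left out, and with each replicate left out in turn (0 to 0); the methods' t-test called 2 probes higher and 1 lower. Why the counts moved was not tested, beyond the fewer probes or arrays that a setting holds. Leaving out each replicate in turn, the member median ran from -0.023 to 0.084 and the subunit difference from 0.065 to 0.24. The test of each array's ratio against 0 is itself the paired analysis, with the array as the replicate block. No paired analysis was possible beyond it because each array gives 1 ratio.

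Of 989 comparisons of a named probe with an alternative, 898 kept direction and side of the threshold, 62 turned the sign and 29 passed the threshold, all with array weights. The values that follow are the mean log2 ratio of a probe. With normexp correction and loess, it turned to -0.043 for Rpl36a A_52_P481880, -0.011 for Rplp0 A_52_P586574, -0.12 for Rpl7a A_52_P436206 and -0.016 for Rpl7a A_52_P548790. With normexp correction and median centring, it turned to -0.17 for Rpl36a A_52_P481880, -0.014 for Rpl3l A_51_P243123, -0.070 for Rps27l A_51_P246903, -0.20 for Rplp0 A_52_P586574, -0.11 for Rpl39 A_51_P139244, -0.38 for Rpl7a A_52_P436206, -0.0078 for Rps24 A_51_P312936 and -0.19 for Rpl7a A_52_P548790. With the slide as a random block, it turned to -0.0045 for Rplp0 A_52_P586574. With replicates 2 and 3 averaged, it turned to 0.20 for Rps4x A_52_P780667, -0.048 for Rplp0 A_52_P586574, 0.14 for Rpl22l1 A_51_P218814 and 0.045 for Rps28 A_52_P682465. With array weights, it turned to -0.011 for Rpl36a A_52_P481880, -0.16 for Rps27l A_51_P246903, -0.073 for Rpl29 A_52_P217069, -0.049 for Rpl29 A_51_P400137 and -0.12 for Rpl29 A_52_P326158. With replicates 2 and 3 left out (chosen after seeing the data), it turned to 0.46 for Rpl34 A_51_P243283, 0.60 for Rps19 A_51_P337290, 2.03 for Rps4x A_52_P780667, 0.14 for Rps3 A_52_P768, 0.27 for Rps28 A_51_P335671, -0.12 for Rplp0 A_51_P344103, 0.27 for Rpsa A_51_P439092, 0.018 for Rplp0 A_51_P134602, 0.013 for Rps27 A_51_P511199, 0.024 for Rpl36al A_51_P209444, -0.21 for Rplp0 A_52_P586574, 0.82 for Rpl22l1 A_51_P218814, 0.16 for Rpl22 A_51_P387878, -0.094 for Rpl3 A_51_P519024, -0.023 for Rpl7a A_52_P436206, 0.19 for Rps28 A_52_P682465, 0.16 for Rps28 A_52_P232909, 0.26 for Rps28 A_52_P55271, -0.064 for Rps24 A_52_P537084, -0.029 for Rpl7a A_52_P548790, -0.090 for Rps24 A_52_P100002 and 0.42 for Rps21 A_52_P740562. With each replicate left out in turn, means that changed sign ran from -0.073 to 0.27 for Rplp0 A_52_P586574, -0.0093 to 0.26 for Rpl29 A_52_P217069, -0.0043 to 0.28 for Rpl29 A_51_P400137, -0.037 to 0.19 for Rpl29 A_52_P326158, -2.07 to 0.31 for Rps4x A_52_P780667, -0.75 to 0.15 for Rpl22l1 A_51_P218814, -0.091 to 0.21 for Rpl39 A_51_P139244, -0.16 to 0.20 for Rps28 A_52_P682465, -0.21 to 0.31 for Rps24 A_52_P100002, -0.015 to 0.10 for Rpl36a A_52_P481880, -0.17 to 0.15 for Rps27l A_51_P246903 and -0.18 to 0.034 for Rpl7l1 A_51_P110147. The cause was not tested. Of the 142 member probes, 135 were well above background throughout, and Rpl3l, Rps4y2 and a Rpl22l1 probe were among the faint ones.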
